A study of Homo sapiens with 18 samples.

Results

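The tRNAs that carry glycine, glutamic acid and aspartic acid were examined in small RNA-seq libraries of HEK293T cells, a human embryonic kidney line. Members were the rows of the count table whose name began with tRNA-Gly-, tRNA-Glu- or tRNA-Asp- and that spanned at most 500 nt. The rule found 70 rows among 499 nuclear tRNA rows and 175935 rows in all. They were 15 Gly-GCC, 9 Gly-CCC, 9 Gly-TCC, 10 Glu-CTC, 8 Glu-TTC and 19 Asp-GTC loci, each named by amino acid and anticodon. The cells had been transfected for 48 h with an siRNA against SSB (siSSB) or with a scramble siRNA (control), and RNA was taken from whole cells (total), from the nuclear fraction (nuc) or from the cytoplasmic fraction (cyto). Each of these 6 groups had 3 libraries, and all 18 libraries were marked as made with PNK, an enzyme that repairs RNA ends. All groups are the same cell line.

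tRNA genes are transcribed by RNA polymerase III (Pol III), which stops at a run of T in the DNA and leaves a short U tail on the new transcript. SSB encodes La, a protein that binds this U tail and shields the precursor until its ends are trimmed and the mature tRNA leaves the nucleus. Glycine is read by the anticodons GCC, CCC and TCC, glutamic acid by CTC and TTC, and aspartic acid by GTC. Gly-GCC and Glu-CTC tRNAs are also known as abundant sources of tRNA fragments, and a count per locus does not separate mature tRNAs, precursors and fragments. La depletion itself was not measured, because the table lists RNAs other than mRNA and the level of SSB mRNA was not analysed here.

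Library sums ranged from 21565995 to 158244813 counts, in which overlapping rows count a read more than once. Nuclear tRNA counts ranged from 559959 to 1359549 in cyto, from 312142 to 577168 in total and from 41216 to 76824 in nuc libraries, so the nuc values rest on the fewest reads. Small nucleolar RNA (snoRNA) counts were 0.320 to 0.555 times the nuclear tRNA counts in cyto and 83.0 to 97.7 times in nuc libraries. Not every nuclear RNA followed the labels: relative to all rows RN7SK, an RNA of the nucleus, was lower in nuc than in cyto RNA, with log2 fold changes of -1.22 ± 0.29 (edgeR adjusted p = 0.00137) in control and -1.26 ± 0.29 (edgeR adjusted p = 0.00129) in siSSB cells. RPPH1 and RMRP were higher in nuc RNA, at 2.09 ± 0.36 and 2.06 ± 0.34 in control cells. In siSSB cells they were at 1.92 ± 0.36 and 2.07 ± 0.34. They were the 2 called higher of 10 other Pol III RNAs on a fixed list, and 7 were called lower. Of these 10 RNAs, 3 were lower in siSSB in total RNA and 2 in each fraction, led by the vault RNAs VTRNA1-1 (log2 fold change -2.25 ± 0.34 in total) and VTRNA1-2 (-2.58 ± 0.38). Without molecular identifiers, reads cannot be counted as separate molecules. The submitters describe the replicates as biological.

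The 70 loci held 36 distinct gene sequences, and 45 loci shared their sequence with another member. They lay on 14 chromosomes, 35 of them on chromosome 1. A stretch of that chromosome, chr1:161422093-161612789 (hg38), held 25 of the 70 loci: 6 Gly-GCC, 6 Gly-TCC, 4 Glu-CTC, 2 Glu-TTC and 7 Asp-GTC. In the GENCODE 44 annotation 39 loci fell in an intron of another gene, 23 between genes and 8 in an exon, most of these of lncRNAs. Loci are named here by the RefSeq symbol that overlaps them, and otherwise by the name in the table. The following 11 genes, read from hg38 on their own strand with the anticodon in capitals, are shown because the results turn on the few bases that separate them.
TRG-GCC1-5 (chr21:17454789-17454859, minus strand): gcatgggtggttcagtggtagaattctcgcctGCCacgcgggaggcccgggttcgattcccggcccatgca
TRG-GCC2-6 (chr17:8125746-8125816, plus strand): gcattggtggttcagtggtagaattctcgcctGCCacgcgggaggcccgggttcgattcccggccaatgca
tRNA-Gly-GCC-5-1 (chr16:70788694-70788764, plus strand): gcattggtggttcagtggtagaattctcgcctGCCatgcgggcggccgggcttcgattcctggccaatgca
TRG-CCC1-1 (chr1:16545939-16546009, minus strand): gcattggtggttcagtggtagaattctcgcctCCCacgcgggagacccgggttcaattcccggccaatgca
TRG-CCC4-1 (chr1:16678271-16678341, minus strand): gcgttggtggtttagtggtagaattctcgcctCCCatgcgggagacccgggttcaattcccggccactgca
TRG-CCC6-1 (chr1:121016845-121016915, minus strand): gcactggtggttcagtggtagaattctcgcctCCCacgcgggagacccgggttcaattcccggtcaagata
TRG-TCC2-1 (chr1:146037061-146037132, plus strand): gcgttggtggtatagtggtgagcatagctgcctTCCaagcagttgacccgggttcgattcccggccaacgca
TRE-TTC1-2 (chr13:41060738-41060809, minus strand): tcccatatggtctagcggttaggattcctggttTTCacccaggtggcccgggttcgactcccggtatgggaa
TRE-TTC2-1 (chr13:44917927-44917998, minus strand): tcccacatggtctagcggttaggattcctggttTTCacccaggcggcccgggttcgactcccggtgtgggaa
TRE-TTC4-1 (chr1:16535279-16535350, minus strand): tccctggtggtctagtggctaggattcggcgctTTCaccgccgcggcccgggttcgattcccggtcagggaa
TRD-GTC2-8 (chr12:96036021-96036092, plus strand): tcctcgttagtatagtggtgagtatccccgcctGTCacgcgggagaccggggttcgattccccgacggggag

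The anticodons are close relatives of each other. The TRG-GCC2 and TRG-CCC1 genes, which decode different glycine codons, are both 71 nt long, share their first 32 bases and differ at 3 positions counted from the first base of the gene: G33C in the anticodon, G45A and G55A. TRG-GCC1 differs from TRG-GCC2 by G5T and C66A, which face each other in the acceptor stem, where the ends of the tRNA pair. The chromosome 16 locus tRNA-Gly-GCC-5-1 differs from TRG-GCC2 at 5 positions, from C37T in the anticodon loop onwards. The deposited rows give this same name to the chromosome 1 locus that is called TRG-GCC4-1 here. TRG-CCC6-1 differs from TRG-CCC1 by T4C, C64T, T68G, G69A and C70T, so that most of its changes lie at its 3′ end. TRE-TTC2 and TRE-TTC4 differ at 15 of 72 positions. TRE-TTC1 and TRE-TTC2 differ by 3 bases, given from TRE-TTC2 to TRE-TTC1 as C6T, C44T and G66A. Reads that do not span such a base cannot tell the genes apart, and how the authors placed reads with several positions is not stated, so values of near-identical loci are uncertain and anticodon totals are given beside them. The letters GTTCGA, part of the internal B box that Pol III factors bind, were found on the gene's strand in 54 of the 70 genes (77.1%) and in 57.7% of all 499 nuclear tRNA rows. TTTT was found in the 25 nt after 77.1% of the 70 genes and after 78.0% of all nuclear tRNA rows.

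Asp-GTC was the most abundant of 53 nuclear anticodons in every group, and the 6 anticodons together made up a large share of all nuclear tRNA counts. That share was 56.3% ± 3.06 (SD, n = 3) in control total, 58.3% ± 2.58 in control cyto and 63.6% ± 2.73 in control nuc RNA. Asp-GTC alone held 20.4%, 23.9% and 25.3% in the 3 control total libraries, and 19.9%, 24.0% and 24.7% in control cyto. The spread of Asp-GTC between replicates was therefore several percentage points. Gly-TCC was the rarest of the 6, at 0.388% to 0.455% in control total, and Gly-GCC, which reads other glycine codons, stood at 8.93% to 11.2% there. Glu-CTC held 9.80% to 12.2% and Glu-TTC 3.82% to 4.83% in control total, so that CTC exceeded TTC in each of these libraries. All these genes are 69 to 73 nt long apart from 1 shortened Gly-CCC locus of 57 nt, so shares were compared without a length term.

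**Figure D1:**
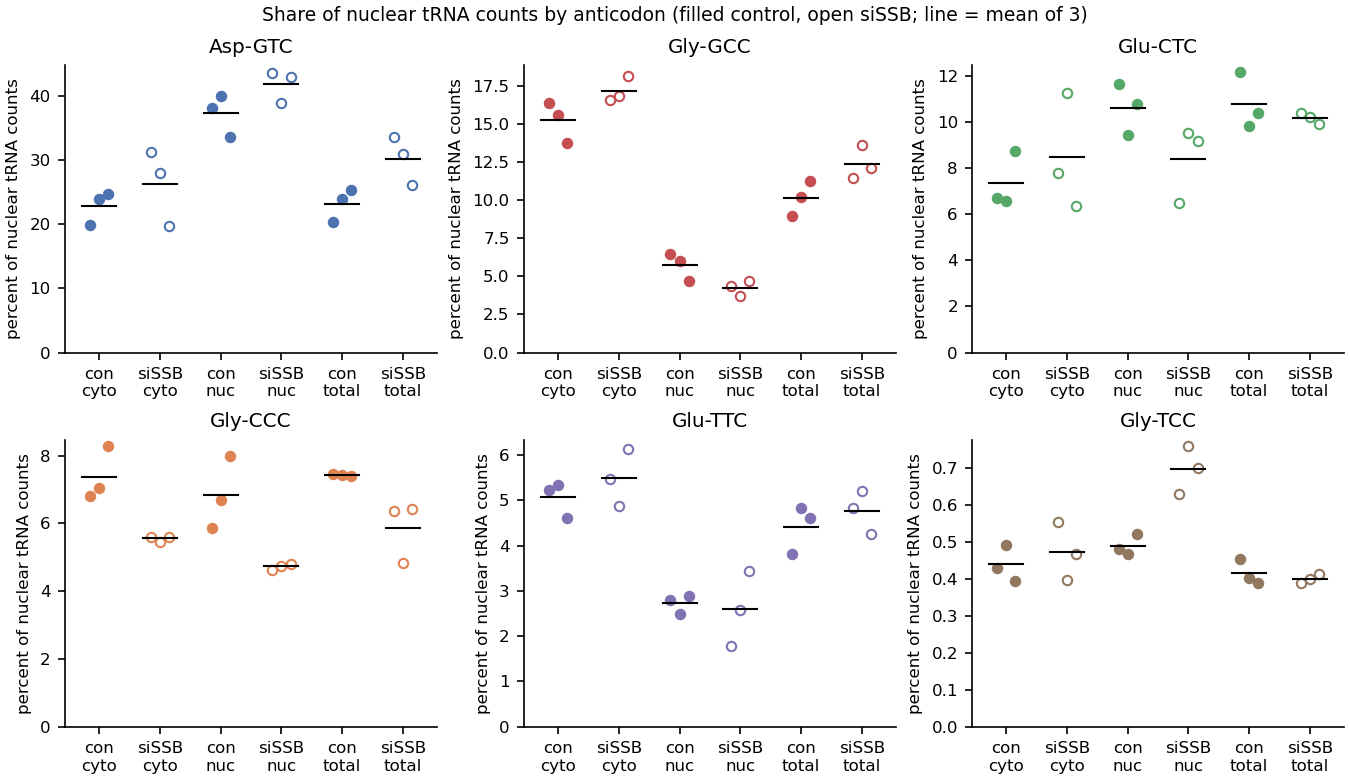
Share of nuclear tRNA counts (percent, y axis) taken by each of the 6 anticodons, in each of the 18 libraries grouped on the x axis by RNA and siRNA. Filled points are control, open points siSSB and lines the mean of 3 libraries; Asp-GTC is higher and Gly-GCC and Glu-TTC are lower in nuc than in cyto libraries of both treatments, and Gly-CCC is lower in siSSB than in control in all 3 kinds of RNA.

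Counts within an anticodon were spread unevenly over its sequences, which also differ in their number of loci. The 11 TRD-GTC2 loci, which share 1 sequence, held 90.6% of Asp-GTC counts over all libraries, and TRD-GTC3-1 held 8.31%. Among these 11 loci the counts were close: in control total replicate 1 they ran from 8810 at TRD-GTC2-2 to 11569 at TRD-GTC2-8. The single locus TRD-GTC3-1 held 9702 there, within that range. TRD-GTC3-1 differs from the TRD-GTC2 sequence at 2 of 72 positions. How reads that fit both sequences were placed is not stated, so these counts cannot compare the output of single loci. Gly-GCC counts were split between the 5 TRG-GCC1 loci (58.6%) and the 6 TRG-GCC2 loci (32.8%), with 3.52% at tRNA-Gly-GCC-5-1. These shares are pooled over all libraries, in which cyto counts weigh most: in nuc RNA TRG-GCC1 held 40.3% and TRG-GCC2 50.5% in control cells, and 45.2% and 46.7% in siSSB cells. Gly-CCC was held mostly by the TRG-CCC1 pair (50.8%) and by the single locus TRG-CCC4-1 (41.3%). The TRE-TTC2 pair held 58.4% of Glu-TTC counts, the TRE-TTC1 pair 27.8% and the TRE-TTC4 pair 8.29%. At the low end, 5 loci had a mean under 1 count per library and passed no filter on low counts in any comparison: tRNA-Asp-GTC-6-1, -8-1, -9-1 and -10-1 and tRNA-Glu-CTC-5-1. They were chosen for mention after their values were seen, and 1 of them, tRNA-Asp-GTC-9-1, had no count in any library. The other 65 loci entered the tests, of which 61 passed the filter in the knockdown comparison of nuc RNA.

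The comparison of nuc with cyto RNA asks which tRNAs lie more in the nucleus. Within nuclear tRNA counts of control cells, Gly-GCC was lower in nuc than in cyto RNA, at 6.45%, 6.03% and 4.70% in nuc and 16.4%, 15.6% and 13.8% in cyto. Glu-TTC was also lower, at 2.49% to 2.88% in nuc and 4.61% to 5.34% in cyto. Asp-GTC stood the other way round, at 38.1%, 40.0% and 33.6% in nuc and 19.9%, 24.0% and 24.7% in cyto, and Glu-CTC was at 9.42% to 11.6% against 6.56% to 8.72%. None of these 4 anticodons overlapped between the fractions, whereas Gly-CCC and Gly-TCC did. Of 50 anticodon totals, 38% were higher in nuc and 26% lower without overlap, so a share that separates the fractions is not particular to these tRNAs. In siSSB cells the Gly-GCC, Glu-TTC and Asp-GTC shares separated the fractions in the same directions, at 3.71% to 4.72% against 16.6% to 18.1% for Gly-GCC and 38.9% to 43.6% against 19.7% to 31.3% for Asp-GTC. Glu-CTC overlapped there, at 6.49% to 9.52% in nuc and 6.37% to 11.3% in cyto. Gly-CCC was lower in nuc without overlap in siSSB cells, at 4.64% to 4.80% against 5.46% to 5.61%, and Gly-TCC higher, at 0.630% to 0.759% against 0.397% to 0.553%. There the background was 53.1% higher and 26.5% lower without overlap.

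Tested with edgeR against all rows of the table, most Gly, Glu and Asp loci were lower in nuc than in cyto RNA. In control cells 61 of the 65 tested loci passed an adjusted p of 0.05, 59 lower and 2 higher in nuc, and in siSSB cells 57 did, 55 lower and 2 higher. Among all rows tested 23.4% were called in control cells (14.2% lower, 9.21% higher) and 25.3% in siSSB cells (14.5% lower, 10.9% higher), and among other nuclear tRNA rows 294 of 392 were lower in control and 241 of 376 in siSSB. DESeq2 called 61 and 57 members as well. The median log2 fold change, nuc against cyto, was -1.63 over the members, -2.34 over other nuclear tRNA rows and -0.27 over all rows in control cells, and -1.98, -1.87 and -0.19 in siSSB cells. These sizes depend on scaling: with libraries scaled to their nuclear tRNA total, 21 members were higher and 17 lower in control cells and 10 higher and 21 lower in siSSB cells, and the median over all rows moved to 1.70 and 1.75. The share of all rows called under that scaling was not counted. Mitochondrial tRNA counts were 5.60% to 14.7% of nuclear tRNA counts in cyto and 18.4% to 28.8% in nuc libraries, and the part of carry-over between fractions in these values was not tested.

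Gly-GCC, the tRNA for the GGC and GGU codons, showed the steepest fall of the 6 anticodon totals. Its total, as TMM-scaled CPM (the count per scaled library size), was 1148 ± 126 in cyto and 109 ± 28.6 in nuc RNA of control cells (SD, n = 3). The log2 fold change was -3.40 ± 0.32 (SE; edgeR adjusted p = 4.01e-10) in control and -3.91 ± 0.34 (edgeR adjusted p = 5.89e-10) in siSSB cells, and all 15 tested loci were lower in both. Within the nuclear tRNA total it remained lower, at -1.41 ± 0.26 (edgeR adjusted p = 4.41e-05) in control and -2.01 ± 0.34 (edgeR adjusted p = 1.55e-07) in siSSB cells. Loci with different sequences fell by different amounts. The 5 TRG-GCC1 loci lay between -3.87 and -4.00 in control cells and the 6 TRG-GCC2 loci between -2.65 and -2.89, and the TRG-GCC1 share of Gly-GCC counts went from 58.7% in cyto to 40.3% in nuc. The locus TRG-GCC1-5 held 17713, 13195 and 24935 counts in cyto and 501, 252 and 173 in nuc, and TRG-GCC2-6 held 8318, 6322 and 10294 in cyto and 407, 345 and 186 in nuc. The extreme was tRNA-Gly-GCC-5-1, in an intron of VAC14, with 5867, 4392 and 6219 counts in cyto and 44, 55 and 22 in nuc libraries of control cells. The highest nuc library thus held 55 counts and the lowest cyto library 4392, and the log2 fold change was -5.15 ± 0.37 in control and -5.79 ± 0.40 in siSSB cells. TRG-GCC4-1 and TRG-GCC3-1, single loci with their own sequence, stood at -4.01 ± 0.52 and -2.68 ± 0.31 in control cells.

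Glu-TTC, which reads the GAA codon, followed with log2 fold changes of -2.89 ± 0.30 (edgeR adjusted p = 2.36e-09) in control and -3.00 ± 0.34 (edgeR adjusted p = 7.58e-08) in siSSB cells. Its sequences spread further apart than those of Gly-GCC. The TRE-TTC1 pair was the most cytoplasmic: TRE-TTC1-2 held 8835, 5946 and 12251 counts in cyto and 155, 68 and 45 in nuc libraries of control cells, a log2 fold change of -4.72 ± 0.37. TRE-TTC1-1 stood at -4.36 ± 0.36 in both control and, with an SE of 0.40, siSSB cells. TRE-TTC2-1, which differs from that pair by 3 bases, held 17276, 16803 and 24073 counts in cyto and 835, 633 and 510 in nuc, a log2 fold change of -2.92 ± 0.30. The TRE-TTC3 and TRE-TTC4 loci stood closer to zero: TRE-TTC4-1 at -0.98 ± 0.31, TRE-TTC4-2 at -0.85 ± 0.30 and TRE-TTC3-1 at -1.13 ± 0.31. All 3 were chosen for mention after their values were seen. TRE-TTC4 differs from the more abundant Glu-CTC genes TRE-CTC1-1 and TRE-CTC1-6 at only 2 positions. The part of reads shared with Glu-CTC in these values was not tested. The sparse tRNA-Glu-TTC-5-1, which has a sequence of its own and was also named after its values were seen, held 39, 33 and 64 counts in cyto and 12, 15 and 16 in nuc libraries of control cells. Its log2 fold change of 0.35 ± 0.36 in control and -0.36 ± 0.44 in siSSB cells did not pass the test in either. The TRE-TTC1 pair made up 32.9% of Glu-TTC counts in cyto and 10.1% in nuc RNA of control cells, and the TRE-TTC4 pair 5.78% and 22.9%. In siSSB cells the corresponding shares were 25.04% and 9.43% for TRE-TTC1, and 7.44% and 23.8% for TRE-TTC4.

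In control cells Glu-CTC and Asp-GTC, the other acidic tRNAs, had the smallest falls of the 6 anticodons, while in siSSB cells Asp-GTC and Gly-TCC had. The Glu-CTC total stood at -1.48 ± 0.30 (edgeR adjusted p = 0.000268) in control and -1.93 ± 0.30 (edgeR adjusted p = 1.17e-05) in siSSB cells. TRE-CTC1-5 held 7420, 5827 and 15508 counts in cyto and 1094, 710 and 705 in nuc libraries of control cells. The related loci stood close to it: the 8 called Glu-CTC loci that fell ranged from -1.44 to -1.58. The exception was tRNA-Glu-CTC-3-1, named after its values were seen, with only 12, 5 and 22 counts in cyto and 18, 16 and 14 in nuc, and a log2 fold change of 2.30 ± 0.42. Asp-GTC stood at -1.29 ± 0.30 (edgeR adjusted p = 0.00117) in control and -1.22 ± 0.30 (edgeR adjusted p = 0.00276) in siSSB cells, and all 15 tested loci were lower in both. Within the nuclear tRNA total Asp-GTC was instead higher in nuc, at 0.71 ± 0.25 (edgeR adjusted p = 0.017) in control and 0.67 ± 0.32 (edgeR adjusted p = 0.0596) in siSSB cells, and Glu-CTC was at 0.53 ± 0.26 and -0.01 ± 0.33.

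In control cells Gly-CCC and Gly-TCC lay between Glu-TTC and Glu-CTC. The Gly-CCC total, for the GGG codon, was at -2.14 ± 0.30 (edgeR adjusted p = 7.18e-07) in control and -2.15 ± 0.30 (edgeR adjusted p = 2.15e-06) in siSSB cells, and 6 of 9 loci were lower and 1 higher in both. TRG-CCC1-1 held 19460, 14426 and 27280 counts in cyto and 1030, 838 and 748 in nuc, and TRG-CCC4-1 held 20994, 19862 and 57949 in cyto and 1841, 1387 and 1630 in nuc libraries of control cells. The locus that went the other way was TRG-CCC6-1, in an intron of the lncRNA gene PDE4DIPP4, with 1529, 1049 and 3067 counts in cyto and 857, 908 and 943 in nuc. Relative to all rows its log2 fold change was 1.01 ± 0.30 (edgeR adjusted p = 0.0121) in control and 1.26 ± 0.31 (edgeR adjusted p = 0.00303) in siSSB cells, and its share of Gly-CCC counts went from 2.52% in cyto to 22.6% in nuc in control and from 2.84% to 30.8% in siSSB cells. Scaled to the nuclear tRNA total it was 3.06 and 3.21, and scaled by library size it was -3.12 and -2.61. Its call was also lost without control cyto replicate 1 (0.92), control cyto replicate 2 (0.72), control nuc replicate 3 (0.91) or siSSB cyto replicate 1 (1.03). Gly-TCC, for the GGA codon, fell by 1.84 ± 0.29 in control (edgeR adjusted p = 5.62e-06) and by 1.38 ± 0.31 in siSSB cells (edgeR adjusted p = 0.00116), with 8 of 9 loci lower in control and 4 of 9 in siSSB. TRG-TCC3-1 and TRG-TCC1-1, its most abundant loci, were at -2.55 ± 0.34 and -2.11 ± 0.34 in control cells. Of 44 anticodon totals other than these 6, 37 were lower in control cells, with a median of -1.92, and in siSSB cells 28 of 43 were, with a median of -1.40.

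**Figure D2:**
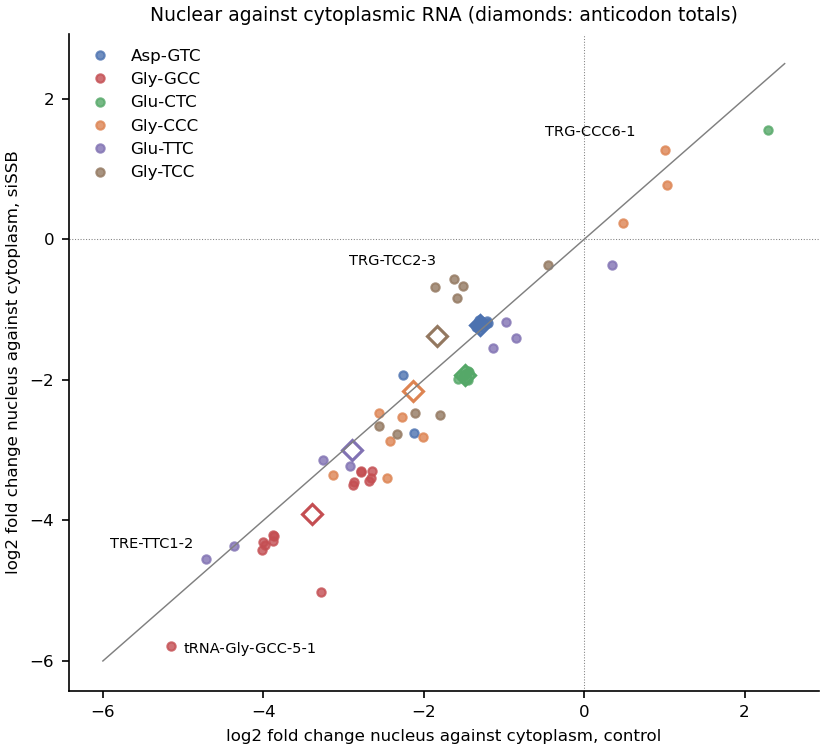
Log2 fold change of nuc against cyto RNA for each of the 65 tested loci, in control cells (x axis) and in siSSB cells (y axis), coloured by anticodon, with diamonds for the 6 anticodon totals and a grey line where both values are equal. Gly-GCC and the TRE-TTC1 loci lie at the lower left, Asp-GTC and Glu-CTC loci nearer to zero, and TRG-CCC6-1 is above zero on both axes at 1.01 and 1.26.

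Knockdown of SSB gave no Gly, Glu or Asp locus that passed the edgeR test in total, nuc or cyto RNA. In total RNA 0 of 65 loci were called against 1.34% of all rows (0.972% lower, 0.367% higher). In nuc RNA 0 of 61 were, against 0.378% (0.349% lower, 0.0291% higher), and in cyto RNA 0 of 65, against 0.291% (0.27% lower, 0.0211% higher). At an unadjusted p under 0.05 edgeR gave 30 lower and 0 higher in total, 24 lower and 2 higher in nuc, and 7 lower and 0 higher in cyto RNA. At that threshold 1255 of all 13883 rows tested were lower and 1045 higher in total RNA. In nuc RNA 370 of 6873 were lower and 587 higher, and in cyto RNA 853 of 18921 and 408. Among other nuclear tRNA rows 254 of 371 were lower and 1 higher in total RNA. In nuc RNA 43 of 255 were lower and 11 higher, and in cyto RNA 180 of 377 and 0. DESeq2 called 2 in total (TRE-TTC1-2 and TRG-CCC6-1), 1 in nuc (TRG-CCC4-1) and 0 in cyto RNA, all lower. At an adjusted p below 0.05 edgeR called 43 of 371 other nuclear tRNA rows lower in total and 19 of 377 in cyto RNA. Of 255 in nuc RNA it called 1 higher and 1 lower. The median log2 fold change of the members was -0.55 in total, -0.58 in nuc and -0.41 in cyto RNA, beside -0.90, -0.32 and -0.65 for other nuclear tRNA rows and -0.01, 0.08 and 0.01 for all rows. The sign of the member median depends on scaling: in total RNA it was 0.18 within the nuclear tRNA total, 0.15 scaled to snoRNAs and -1.05 scaled to miRNAs, where 37 loci were called lower. The corresponding medians over all rows were 0.74, 0.72 and -0.55, and the share of all rows called under these scalings was not counted.

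Gly-CCC had the lowest knockdown values of the 6 anticodon totals. Its TMM-scaled level was 610 ± 123 CPM in control total and 297 ± 103 in siSSB total RNA, 33.9 ± 2.39 and 18.6 ± 3.98 in nuc, and 2549 ± 520 and 1272 ± 119 in cyto RNA (SD, n = 3). The CPM ranges of control and siSSB did not overlap in any of the 3 kinds of RNA, but the log2 fold changes did not pass the adjustment: -1.04 ± 0.37 in total, -0.86 ± 0.27 in nuc and -1.0 ± 0.26 in cyto, with edgeR adjusted p of 0.177, 0.208 and 0.184. Relative to the nuclear tRNA total they were -0.34 ± 0.27, -0.53 ± 0.26 and -0.41 ± 0.25, with edgeR adjusted p of 0.313, 0.274 and 0.258. As a share of nuclear tRNA counts Gly-CCC stood at 7.45%, 7.44% and 7.39% in control total and 6.35%, 4.83% and 6.42% in siSSB total. In nuc RNA the shares were 5.85%, 6.69% and 7.98% in control and 4.64%, 4.75% and 4.80% in siSSB, and in cyto RNA 6.80%, 7.03% and 8.29% against 5.61%, 5.46% and 5.61%. Gly-CCC was the only one of the 6 whose share lay lower without overlap in all 3 kinds of RNA. Of all anticodon totals, 22% lay lower without overlap in total, 8.51% in nuc and 32% in cyto RNA. Over the anticodon totals other than these 6, the median log2 fold change was -0.91 in total, -0.22 in nuc and -0.76 in cyto RNA. In total and cyto RNA the Gly-CCC values were thus near those of other tRNAs.

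The other 5 anticodons stood nearer to zero or varied between kinds of RNA. Asp-GTC was at -0.34 ± 0.36 in total, -0.17 ± 0.25 in nuc and -0.40 ± 0.27 in cyto RNA, and its share in total RNA was 20.4% to 25.3% in control and 26.1% to 33.6% in siSSB without overlap. Gly-GCC was at -0.44 ± 0.34, -0.76 ± 0.31 and -0.41 ± 0.24, and its share lay higher in siSSB in total (8.93% to 11.2% against 11.5% to 13.6%) and cyto RNA (13.8% to 16.4% against 16.6% to 18.1%). Of all anticodon totals 10% lay higher without overlap in total and 2% in cyto RNA. Glu-CTC was at -0.84 ± 0.37, -0.70 ± 0.27 and -0.42 ± 0.29, and Glu-TTC at -0.62 ± 0.31, -0.40 ± 0.32 and -0.46 ± 0.25. Gly-TCC was at -0.79 ± 0.30 in total and -0.46 ± 0.25 in cyto RNA, and at 0.15 ± 0.27 in nuc RNA. Its nuc share was 0.480%, 0.468% and 0.521% in control and 0.630%, 0.759% and 0.701% in siSSB libraries, beside a background of 17% of anticodon totals higher without overlap. None of these totals passed the edgeR test in any knockdown comparison, with adjusted p from 0.207 to 0.829.

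**Figure D3:**
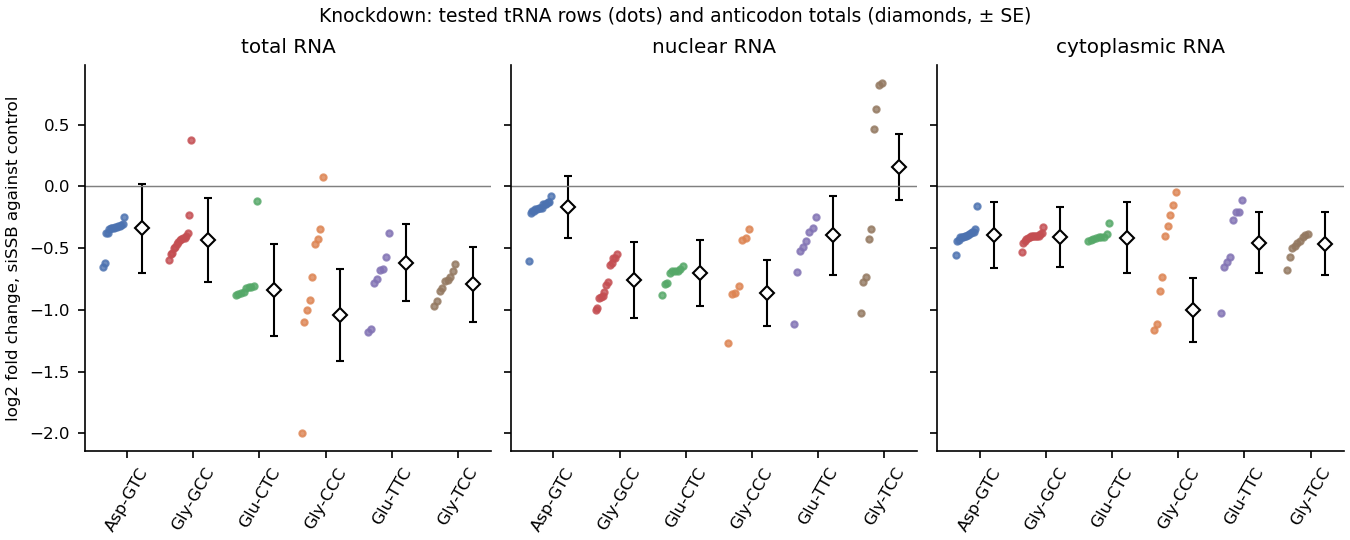
Log2 fold change of siSSB against control (y axis) in total, nuc and cyto RNA, by anticodon on the x axis. Dots are tested loci and diamonds anticodon totals with their SE. Gly-CCC totals lie lowest in each panel at -1.04, -0.86 and -1.0, and 4 Gly-TCC loci lie above zero in nuc RNA.

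Of single loci, those of Gly-CCC and Glu-TTC came closest to the threshold. TRG-CCC6-1 counts were 5026, 2100 and 1554 in control total and 640, 492 and 1257 in siSSB total libraries, where control replicate 1 is far above the rest and the highest siSSB library is still below the lowest control library. Its log2 fold change in total RNA was -2.00 ± 0.52 (edgeR adjusted p = 0.0794), beside -0.44 ± 0.29 in nuc and -0.85 ± 0.29 in cyto RNA. Within the nuclear tRNA total it was -1.25 ± 0.36 in total RNA (edgeR adjusted p = 0.018). TRE-TTC1-2 counts were 3608, 2984 and 3893 in control total and 1547, 1828 and 1706 in siSSB total, a log2 fold change of -1.18 ± 0.27 (edgeR adjusted p = 0.0644), and stood at -1.03 ± 0.29 in cyto RNA. Within the nuclear tRNA total it was at -0.43 ± 0.30 in total RNA (edgeR adjusted p = 0.251). TRG-CCC4-1 held 1841, 1387 and 1630 counts in control nuc and 759, 574 and 747 in siSSB nuc, a log2 fold change of -1.27 ± 0.29 (edgeR adjusted p = 0.0939). It was also at -1.0 ± 0.37 in total and -1.17 ± 0.30 in cyto RNA. TRG-CCC1-1 was at -1.10 ± 0.34, -0.87 ± 0.28 and -1.12 ± 0.24 in total, nuc and cyto RNA, with edgeR adjusted p of 0.127, 0.221 and 0.109. The most abundant Asp-GTC loci, TRD-GTC2-8 and TRD-GTC2-6, lay between -0.41 and -0.14 in the 3 kinds of RNA.

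Loci with the same gene sequence differed within libraries in a few cases, and some of these differences moved with the siRNA. Copies of 1 sequence can be told apart only by reads that reach the flanking bases or by how reads with equal positions were placed, which is not stated, and these loci were noticed after the values were seen. The ratio of a copy to the other copies of its sequence in the same library needs no scaling between libraries, and an exact permutation test of 3 against 3 libraries cannot go below 0.1 for it. The 3′ flanks of the loci concerned are given for the 25 nt after the gene on its own strand, with the first T run in capitals.
TRE-TTC1-2 flank (chr13:41060713-41060737, minus strand): cgcttccttaTTTTTcttttttttt
TRE-TTC1-1 flank (chr2:130337103-130337127, minus strand): caaaagtggcTTTTTTTTTTTTTTT
TRG-CCC1-1 flank (chr1:16545914-16545938, minus strand): agagggtcTTTTTcaccccgctgtt
TRG-CCC1-2 flank (chr1:16861992-16862016, plus strand): aaagggtcTTTTTcaccccgctgtt
TRG-TCC2-1 flank (chr1:146037133-146037157, plus strand): gtgtcagTTTTTctcttcagctttt
TRG-TCC2-2 flank (chr1:161447560-161447584, minus strand): gcgggcggaccTTTTgcggaggtcc
TRG-TCC2-6 flank (chr1:161531185-161531209, plus strand): agggTTTTTgtctttccttctacga

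TRE-TTC1-2, in an intron of ELF1, exceeded its copy TRE-TTC1-1 between genes on chromosome 2 in control cells and did not in siSSB cells. In cyto RNA the log2 ratio of their counts was 0.35, 0.41 and 0.40 in control libraries and 0.04, 0.01 and -0.10 in siSSB libraries. In total RNA it was 0.52, 0.40 and 0.42 in control and 0.08, 0.04 and -0.05 in siSSB libraries. The groups did not overlap in either (exact permutation p = 0.1, the smallest possible, n = 3), while they overlapped in nuc RNA, where neither copy held more than 155 counts. The counts behind the cyto ratios were 8835, 5946 and 12251 for TRE-TTC1-2 and 6924, 4468 and 9293 for TRE-TTC1-1 in control, and 4599, 3177 and 5852 against 4461, 3158 and 6280 in siSSB libraries. The log2 ratio of TRG-CCC1-1, between genes, to TRG-CCC1-2, in an intron of CROCC, was also lower in siSSB without overlap: it was 0.47, 0.40 and 0.29 in control cyto and -0.03, -0.01 and 0.04 in siSSB cyto, and 0.31, 0.27 and 0.27 in control total and 0.09, 0.07 and 0.13 in siSSB total, where TRG-CCC1-1 still exceeded its copy in all 3 libraries. In nuc RNA the TRG-CCC1 ratios overlapped, with means of 0.96 in control and 0.93 in siSSB. The TRE-TTC2 pair moved apart instead, with a log2 ratio of TRE-TTC2-1 to TRE-TTC2-2 of 1.23 to 1.47 in control cyto and 1.76 to 1.87 in siSSB cyto libraries. Its groups overlapped in total RNA, at 1.36 to 2.12 in control and 1.65 to 2.07 in siSSB libraries, and in nuc RNA, at 1.61 to 1.75 and 1.37 to 1.96. Over all members that share a sequence, 11 of 45 copies lay apart from control without overlap in total, 5 of 43 in nuc and 12 of 45 in cyto RNA, beside 19.9%, 19.7% and 21% of all nuclear tRNA copies compared. The number of copies that separate is thus near that of tRNAs in general, and in a pair each copy mirrors the other.

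**Figure D4:**
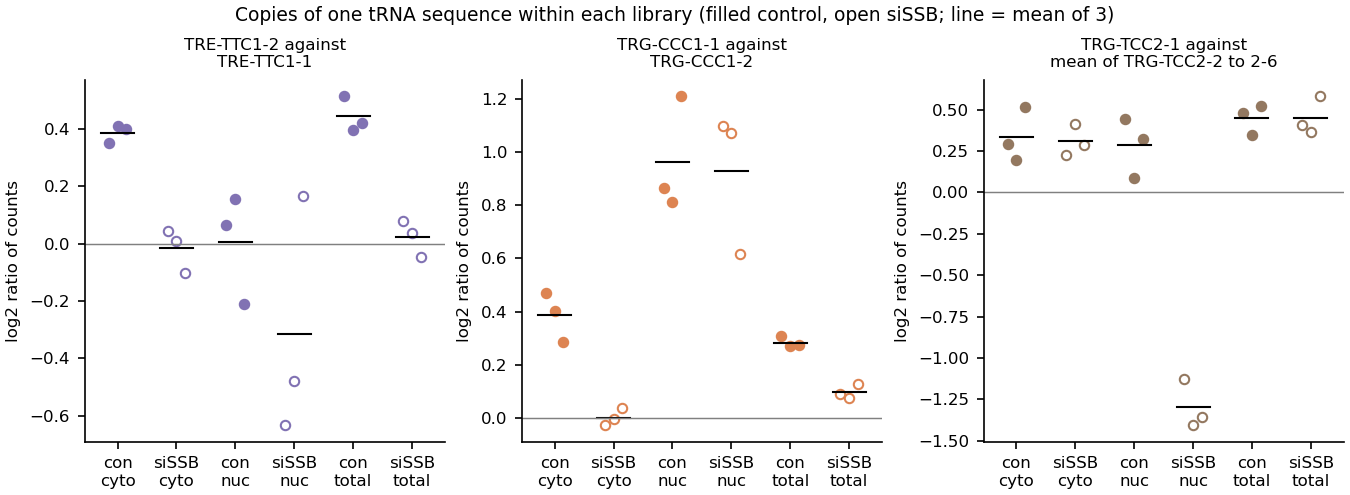
Log2 ratio of the counts of a copy to the other copies of the same gene sequence in each library (y axis), by RNA and siRNA on the x axis. Filled points are control, open points siSSB and lines the mean of 3 libraries; the TRE-TTC1 and TRG-CCC1 ratios are near zero in siSSB cyto libraries and near 0.4 in control cyto, and the TRG-TCC2-1 ratio is lower in siSSB in nuc RNA and near its control level in total and cyto RNA.

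Gly-TCC copies differed in direction in nuc RNA. The 6 loci that share the TRG-TCC2 sequence were noticed after their values were seen. TRG-TCC2-2 to TRG-TCC2-5 lie in introns of a lncRNA gene (ENSG00000283360) in the chromosome 1 stretch, TRG-TCC2-6 in an intron of another (ENSG00000273112), and TRG-TCC2-1 between genes at chr1:146037061-146037132. TRG-TCC2-2 held 43, 29 and 23 counts in control nuc and 63, 61 and 51 in siSSB nuc libraries, and TRG-TCC2-3 held 42, 32 and 35 in control and 67, 69 and 64 in siSSB. TRG-TCC2-1 went the other way, with 56, 33 and 34 counts in control and 24, 19 and 19 in siSSB libraries. TRG-TCC2-4 (46, 25 and 41 against 57, 60 and 62) and TRG-TCC2-5 (52, 36 and 27 against 55, 51 and 56) resembled TRG-TCC2-2 in direction. Their log2 fold changes in nuc RNA were 0.84 ± 0.28 for TRG-TCC2-2, 0.82 ± 0.27 for TRG-TCC2-3, 0.62 ± 0.30 for TRG-TCC2-4 and 0.47 ± 0.29 for TRG-TCC2-5, beside -1.02 ± 0.30 for TRG-TCC2-1 and -0.73 ± 0.42 for TRG-TCC2-6, and none passed the edgeR test (lowest adjusted p = 0.18). Relative to the other copies, TRG-TCC2-1 was at 0.44, 0.09 and 0.32 in control nuc and -1.13, -1.41 and -1.35 in siSSB nuc libraries on the log2 scale, a difference of -1.58 (exact permutation p = 0.1, the smallest possible, n = 3). In total and cyto RNA that difference was 0.00 and -0.03. All 6 copies had negative log2 fold changes in total RNA, from -0.63 to -0.93. The 4 copies that stood higher share the same 3′ flank, with a run of 4 T starting after 11 bases. TRG-TCC2-1 and TRG-TCC2-6 have a run of 5 T after 7 and 4 bases. However, TRG-TCC1-1 and TRG-TCC4-1, Gly-TCC loci of other sequences, also have a run of 4 T after 11 bases. Both had negative log2 fold changes in nuc RNA, at -0.77 ± 0.36 and -0.43 ± 0.40. A link between flank and direction was not tested.

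**Figure D5:**
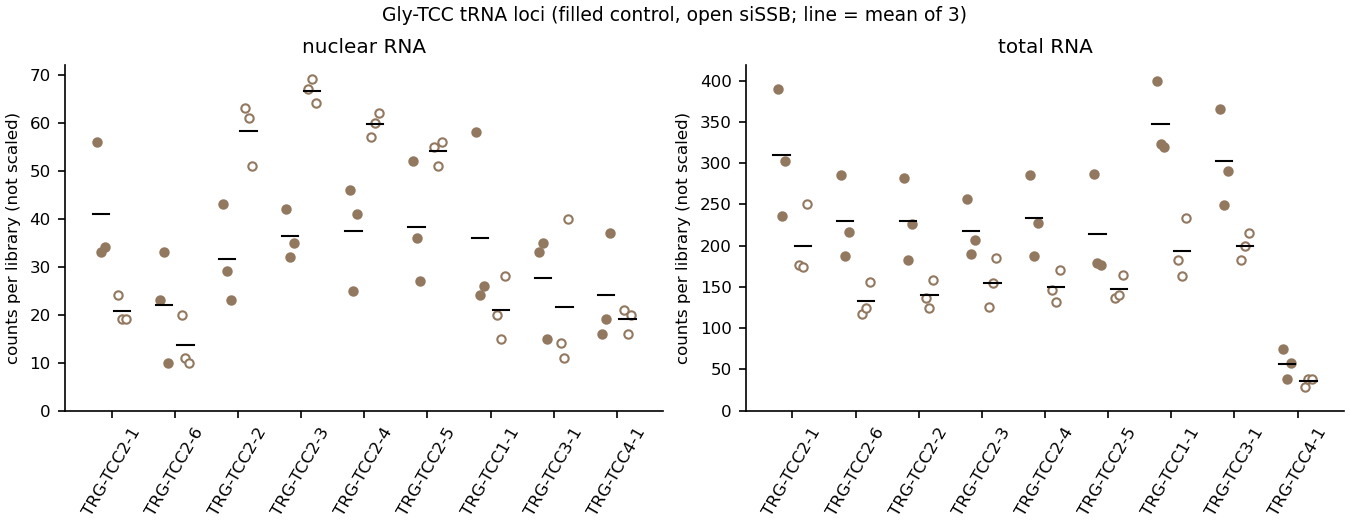
Counts per library (y axis, not scaled) of the Gly-TCC loci on the x axis, in nuc and in total RNA. Filled points are control, open points siSSB and lines the mean of 3 libraries; in nuc RNA TRG-TCC2-2 to TRG-TCC2-5 are higher in siSSB and TRG-TCC2-1 is lower, whereas in total RNA the siSSB points of these loci lie lower.

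Since La binds the U tail that a T run leaves, the first run of at least 4 T after each gene was set beside the knockdown values. A complete run lay within the 25 nt after 53 of the 70 genes, a median of 10 bases from the gene's end (2 to 16), with a median length of 5 T (4 to 8). The median log2 fold change of loci with a run of 4 and of longer runs was -0.57 and -0.50 in total, -0.54 and -0.49 in nuc, and -0.41 and -0.43 in cyto RNA. Spearman's rho between run length and log2 fold change was 0.08, -0.01 and -0.07, a description over loci that share sequences and libraries. For the distance to the run it was 0.31, 0.33 and 0.00.

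Whether the knockdown values differ between nuc and cyto RNA was tested as an interaction over the 12 fraction libraries. None of the 65 loci passed, with a lowest adjusted p of 0.956, beside 0.0133% of all rows (0.008% higher, 0.00533% lower). At an unadjusted p under 0.05 edgeR gave 2, both higher in nuc: TRG-TCC2-2, with a difference of 1.19 ± 0.46 on the log2 scale, and TRG-TCC2-3, with 1.08 ± 0.46. At that threshold 1012 of all 37493 rows tested were higher and 826 lower. Among 396 other nuclear tRNA rows 49 were higher and 0 lower, so 2 of 65 is not particular to these loci. DESeq2 called 0. The anticodon totals gave differences from -0.50 ± 0.42 for Gly-GCC to 0.47 ± 0.42 for Gly-TCC.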

How the data were processed

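Small RNA libraries were analysed from 18 samples in 6 groups of 3, grouped by title. The authors deposited 1 table of raw counts per noncoding RNA row, not normalized. The submitters' processing notes name Bowtie2, bedtools and hg38 without versions or roles. The trimming tool, the handling of reads with several positions and the use of strand are not given in the sources used here, so near-identical copies may share reads. Table rows carry 25 nt beyond each gene end, which were removed to give gene positions. Of the 70 members, 52 matched the ends of a RefSeq gene (GRCh38.p14) and 58 overlapped one, sequences were read from hg38, and neighbouring genes came from GENCODE 44. The 5 shorter Glu-CTC rows end before the annotated 3′ end.

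The edgeR 4.0.16 quasi-likelihood test (R 4.3.3, limma 3.58.1) was run on the counts with TMM factors and filterByExpr. Fits held the 6 libraries of the groups compared, or 12 for the interaction. Anticodon totals, with rows of identical counts taken once, entered the same fit. Benjamini-Hochberg adjustment covered all rows tested, and loci were called at an adjusted p below 0.05. The standard error is the absolute log2 fold change divided by the root of F. The fit was tested on simulated data first. Copy ratios used rows of at least 10 counts. Alternatives were DESeq2 1.42.0, other scalings, no filter, a replicate block, and each library left out. Leaving a library out of the copy ratios was an alternative chosen after seeing the data. Python 3.11.15 with pandas 2.3.3, scipy 1.17.1, pysam 0.24.0 and matplotlib 3.10.9 was used for the rest.

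Same-numbered libraries were checked for pairing by the correlation of their deviations from the group means. It was 0.112, 0.142 and 0.167 for nuc against cyto in control cells, above 0.1 in every pair. In the other comparisons it ranged from -0.645 to 0.331 and was not above 0.1 in every pair. These low correlations do not establish that the numbers pair the samples.

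Named loci were the 2 with the highest mean count of each anticodon and, per comparison, up to 5 called loci in each direction with the largest change and a mean of at least 50 counts. Others were named after their values were seen. The members, lists and tests were chosen with earlier results of these data known.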

Additional observations from a re-analysis of the deposited data

Results flagged for a closer look

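The knockdown values of 3 Gly-TCC loci pointed in opposite directions in nuc and total RNA, with every library of siSSB on one side of every control library in each. TRG-TCC2-2 stood at 0.84 in nuc and -0.84 in total RNA on the log2 scale, siSSB against control. TRG-TCC2-3 stood at 0.82 in nuc and -0.63 in total RNA. TRG-TCC2-4 stood at 0.62 in nuc and -0.76 in total RNA. The difference between nuc and total RNA was not tested. The share of all rows that separate in opposite directions in nuc and total RNA was not counted. These loci share 1 gene sequence and the same 3′ flank, so they are not independent of each other, and none of these values passed the edgeR test. The search for results to flag did not examine groups of 3 libraries for single libraries that stand apart. Fits with 1 library left out are given below.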

How the results depend on the processing

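The count of members called after knockdown in total RNA, 0 as reported, was 1 by library size, within the nuclear tRNA total and scaled to snoRNAs, 2 by DESeq2 and with no filter on low counts, and 37 scaled to miRNAs. For the alternatives given here and below, the share of all rows called was not counted. Leaving out 1 library gave 0 to 1, with 1 without control total replicate 3 or siSSB total replicate 3 (TRG-CCC6-1 in both, adjusted p = 0.0168 and 0.0305). Scaled to miRNAs, the totals of Gly-CCC (-1.52), Gly-TCC (-1.28), Glu-CTC (-1.33) and Glu-TTC (-1.14) also passed in total RNA. In nuc RNA the count of 0 became 1 by DESeq2 and with no filter, and in cyto RNA no alternative changed it.

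Scaling to the nuclear tRNA total changed the fraction comparisons, since it sets the summed nuclear tRNA count to no change. The 6 anticodons held on average 58.3% of that sum in control cyto and 63.6% in control nuc libraries. In siSSB cells they held 63.5% in cyto and 62.5% in nuc, so they weigh heavily on their own reference. Members called went to 38 in control and 31 in siSSB cells. In control cells Gly-CCC was then -0.11, Gly-TCC 0.16, Glu-CTC 0.53, Asp-GTC 0.71, TRE-CTC1-5 0.53, TRE-CTC1-3 0.57, TRD-GTC2-8 0.81 and TRD-GTC2-6 0.72. In siSSB cells Gly-CCC was -0.23, Gly-TCC 0.56, Glu-CTC -0.013, Asp-GTC 0.67, TRE-CTC1-3 0.016, TRD-GTC2-8 0.71 and TRD-GTC2-6 0.73. Scaled to miRNAs, Gly-TCC (-1.17) and Asp-GTC (-1.08) lost their call in siSSB cells. TRG-CCC6-1 turned to -3.12 by library size and -4.89 scaled to snoRNAs in control cells, and to -2.61 and -4.66 in siSSB cells. Gly-GCC and Glu-TTC totals kept their direction and call in both fraction comparisons under every alternative run. Leaving out 1 library gave 58 to 60 members called in control and 54 to 58 in siSSB cells.

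With the replicate block, which treats same-numbered libraries as paired, 61 members were called in control and 58 in siSSB cells. After knockdown 0 were called in each kind of RNA. It changed no call of an anticodon total. Low nuc counts limit single loci, as the Gly-TCC copies held 10 to 69 counts there.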
